A study of Mus musculus with 24 samples.

Results

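The retinas of mice exposed to a blast wave were compared with those of sham mice 5 weeks after the exposure, across all genes of the 5-week expression table. The members are the 12 retinas that the labels give as 5 weeks, 6 of the traumatic brain injury (TBI) group and 6 controls, out of 24 retinas in the series. All mice were male C57BL/6J from The Jackson Laboratory, wild type with no transgene, and were 13 to 17 weeks old when injured. The blast-mediated TBI (bTBI) mice were anesthetized with ketamine and xylazine and received a 20 PSI wave in an enclosed chamber, with the left side of the head facing it, and the retina came from the eye that faced the wave. Sham mice were handled alike without the wave. The other 12 retinas, 6 bTBI and 6 sham, were taken at 8 days and serve here only to set the later effect beside the earlier. Polyadenylated RNA of each retina was sequenced, and the values are scaled counts, which are gene counts divided by an effective library size and put on the scale of CPM. The depth inferred from the steps of these values at 5 weeks ran from 16847387 to 23787494 reads in sham retinas, with a median of 21613805. In bTBI retinas it ran from 15521745 to 23838444, with a lower median of 16990374. Whether this difference bears on the calls was not tested.

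Retinal ganglion cells (RGCs) are the only neurons that carry signals from the retina to the brain, through axons that form the optic nerve. They lie in the innermost cell layer and are few beside the rods, which make up most of the mouse retina. Their long myelinated axons need abundant neurofilaments, motor proteins and sodium channels, so many genes of these families are read mainly from RGCs in retinal RNA. After injury to the axon, RGCs can shut down their identity genes before they die, and Müller glia, astrocytes and microglia respond around them. The labels give the cell type of every sample as retinal ganglion cell, but the values are those of whole retina. Rcvrn, recoverin, a calcium sensor of photoreceptors, had 828 to 914 scaled counts in sham retinas and 879 to 970.3 in bTBI retinas, and Glul, the glutamine synthetase of Müller glia, had 2231 to 2449 and 2344 to 2524. In RNA of whole retina, fewer cells of a type and less RNA per cell cannot be told apart.

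The response at 5 weeks was almost wholly a loss. Of 15920 genes tested with limma, 133 were called at an adjusted p under 0.005, and 131 of these were lower in bTBI retinas and 2 were higher. The lower genes are 0.823% of all genes tested and the higher genes 0.0126%. Leaving out sham replicate 2 brought the lower genes from 131 to 87. The median log2 fold change of all genes was 0.00 and 49.4% were negative, but the deposited scaling sets this centre, so a shift shared by all genes could not be seen in these values. Across all genes 1107 were lower and 632 higher at an unadjusted p under 0.05. At a looser adjusted p of 0.05, 308 genes were lower and 18 were higher. Every bTBI retina was below every sham retina in 124 of the 131 lower genes, and this holds for 278 genes (1.75%) of the whole table. The reverse, every bTBI retina above every sham retina, holds for both higher genes and for 38 genes (0.239%) of the table.

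**Figure D1:**
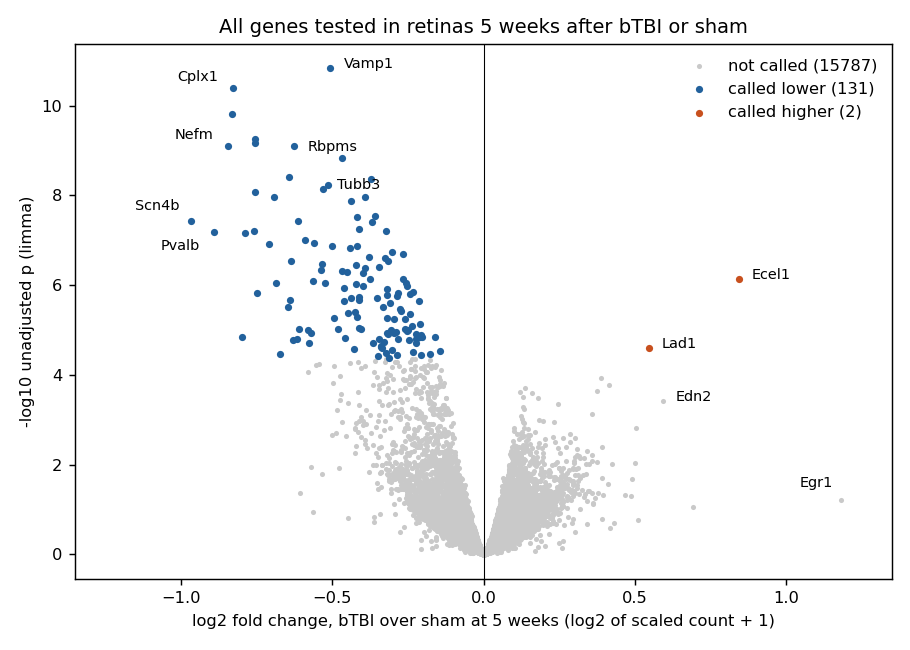
Each point is a gene, with the log2 fold change of bTBI over sham at 5 weeks on the x axis and -log10 of the unadjusted limma p on the y axis. Blue marks the 131 genes called lower, orange the 2 called higher (Ecel1 and Lad1) and grey the genes not called, and Egr1, the point farthest to the right, was not called.

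The falls were moderate in size. Over the 131 lower genes the bTBI mean was 76.0% of the sham mean in the median, from 40.9% for the lowest to 90.5% for the highest. The bTBI mean was under 60% of sham in 16 genes, from 60% to under 70% in 22, from 70% to under 80% in 51, and 80% or more in 42. Of the 131 genes 130 are protein coding, and the exception is the long noncoding RNA Miat. Among 266 measured genes of 16 neuronal lists, 54 (20.3%) were called lower and none higher by limma, and 35 were called lower without sham replicate 2. At an unadjusted p under 0.05, 115 of them were lower and 13 higher. The lists were chosen with earlier results of these data known, so these shares are a description.

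**Figure D2:**
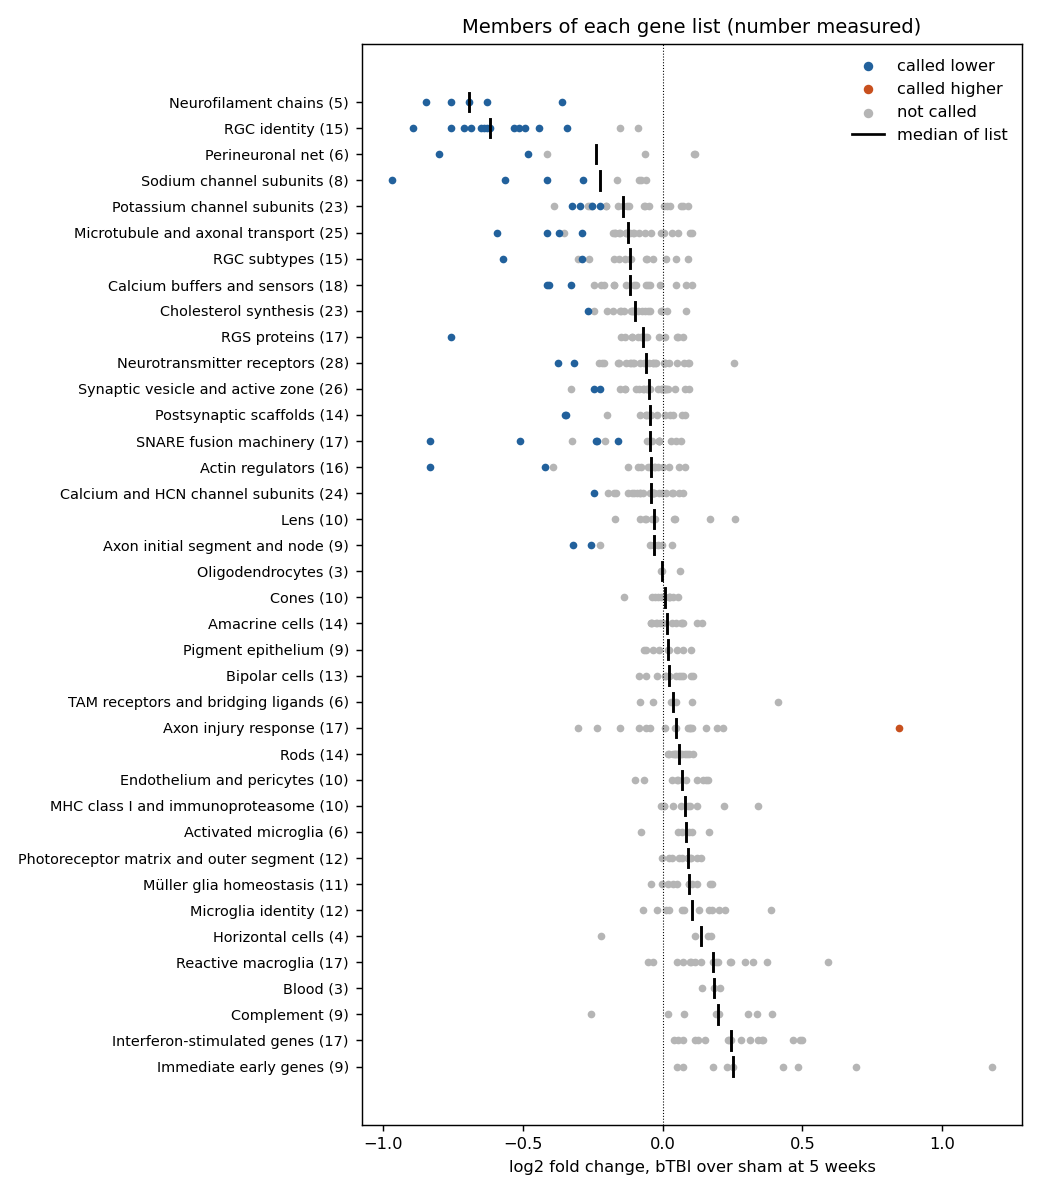
Each row is a gene list with its number of measured members in parentheses, each point a member, and the x axis is the log2 fold change of bTBI over sham at 5 weeks. The vertical bars are list medians. Neurofilament chains and RGC identity genes stand farthest to the left, and the 1 orange point is Ecel1.

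RGC identity genes fell together. Of 15 measured genes 13 were called lower (11 to 13 when each retina was left out in turn), with a median log2 fold change of -0.62 over the list beside 0.00 over all genes, and all 15 were negative. Rbpms, an RNA-binding protein used to count RGCs, had 31.7, 33.7 and 37.5 scaled counts in sham retinas (lowest, median, highest) and 19.3, 21.5 and 25 in bTBI retinas. No bTBI retina reached the lowest sham retina, and the log2 fold change was -0.63 ± 0.06 (SE, n = 6 per group, limma adjusted p = 1.84e-06). Sncg, gamma-synuclein, which is rich in RGC somas and axons, had 62.5, 69.5 and 76.5 in sham and 35.1, 40.4 and 49.1 in bTBI. Its bTBI mean was 58.8% of sham (adjusted p = 1.84e-06, limma). Thy1, a surface glycoprotein of RGCs, stood at 70.1% of sham, and Tubb3, the neuronal beta-tubulin, at 69.2%. Both groups stayed apart in each of these genes.

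The transcription factors that set RGC fate were among them. Pou4f1, which encodes BRN3A, had a mean of 25.1 ± 1.22 scaled counts in sham and 15.5 ± 3.08 in bTBI retinas (SD, n = 6), or 61.8% of sham. Pou4f2 and Pou4f3 stood at 67.8% and 57.5%. Slc17a6, the vesicular glutamate transporter through which RGCs release glutamate, was at 61.5% (65.4 ± 2.59 against 40.3 ± 8.31), and Pvalb, parvalbumin, a calcium buffer, at 50.9%. The 2 members not called were Isl1 (log2 fold change -0.09, adjusted p = 0.801, limma) and Ebf3 (-0.15, adjusted p = 0.273, limma), which were named after their values were seen. Isl1 is also a transcription factor of bipolar and amacrine cells.

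All 5 neurofilament genes, which build the intermediate filaments of large axons, were called lower (4 or 5 when each retina was left out in turn), with a median log2 fold change of -0.69. Nefm, the medium chain, had 112, 122 and 127 scaled counts in sham and 55.5, 65.2 and 90.4 in bTBI retinas. Nefl, the light chain, had 273, 284 and 294 in sham and 123, 168 and 221 in bTBI. Nefh, the heavy chain, stood at 62.2% of sham and Prph, peripherin, at 55.1%, while Ina, alpha-internexin, was the least affected chain at 77.7%. In Nefl, Nefm and Nefh the bTBI retinas were more spread out than the sham retinas: the SD of Nefl was 8.56 in sham and 32.3 in bTBI. This did not hold for Ina, with an SD of 4.925 in sham and 3.936 in bTBI, and Prph had 0.466 and 0.494.

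**Figure D3:**
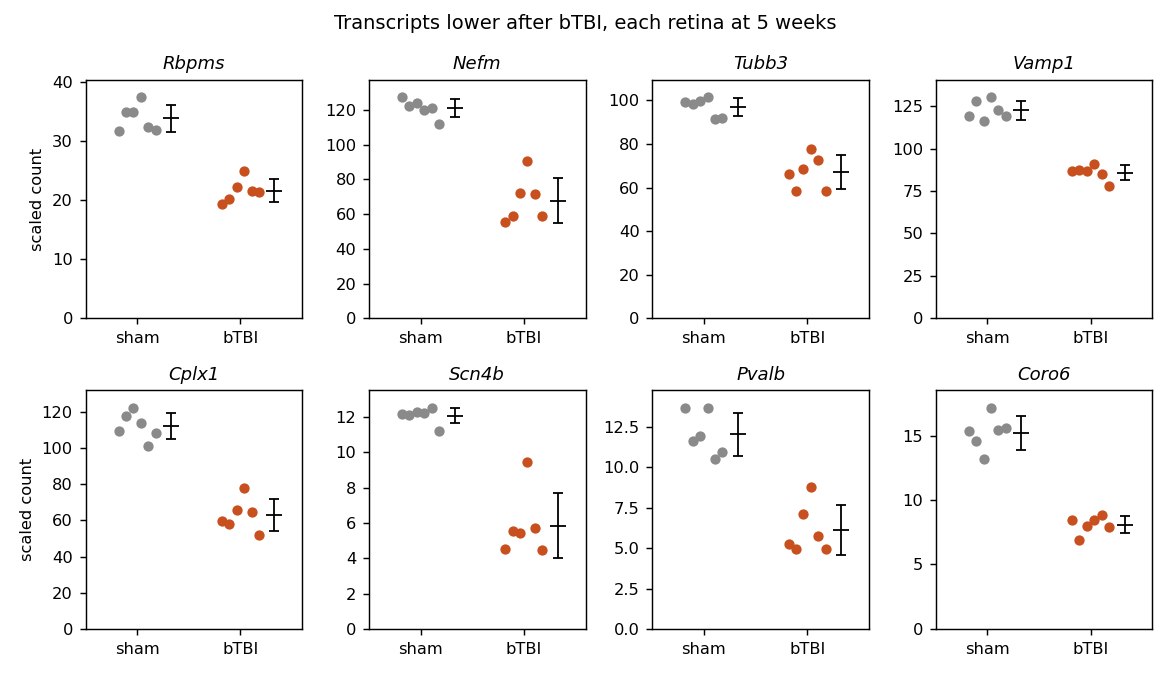
Scaled counts of 8 lower genes in each retina at 5 weeks, with grey points for the 6 sham and orange points for the 6 bTBI retinas in order of replicate number, and the mean and SD beside them. In all 8 genes every bTBI retina is below every sham retina, and bTBI replicate 4 is the highest of the bTBI retinas in each of them but Coro6.

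Of 15 measured markers of RGC subtypes 2 were called lower, Spp1 and Satb1, and the list's median was -0.12. Neither was called without sham replicate 2 or 5 or bTBI replicate 5, and 1 was called without sham replicate 1 or 3 or bTBI replicate 1 or 2. Satb1, a chromatin organizer of some direction-selective RGCs, had 25.4 to 29.2 scaled counts in sham and 20.4 to 22.7 in bTBI (adjusted p = 0.00184, limma). Spp1, osteopontin, which marks alpha RGCs and is also made by activated microglia, had 13.8, 16 and 18.3 in sham and 7.83, 10.8 and 13.5 in bTBI (adjusted p = 0.00187, limma). Opn4, melanopsin of the intrinsically photosensitive RGCs, was at 90.2% of sham (log2 fold change -0.12, adjusted p = 0.705, limma), Cartpt of an ON-OFF direction-selective type at 96.0% (adjusted p = 0.857, limma), and Kcng4 of alpha RGCs at 101% (adjusted p = 0.966, limma). These last 3 were named after their values were seen. Whether the subtypes differ from each other was not tested.

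In the machinery that fuses synaptic vesicles with the membrane, paralogs had different values. Of 17 measured SNARE genes 5 were called lower, but 2 without sham replicate 2 or 4 or bTBI replicate 2, and 3 without bTBI replicate 1, 5 or 6. Vamp1, a vesicle SNARE of fast-firing neurons, at chr6:125215551-125245964 (GRCm38), had the smallest p of all genes, with 116, 121 and 130 scaled counts in sham and 78.1, 86.8 and 91.0 in bTBI (log2 fold change -0.51 ± 0.04 SE, adjusted p = 2.34e-07, limma). Its paralog Vamp2, named after its values were seen, had 962 to 994 in sham and 939 to 999 in bTBI (log2 fold change -0.01, adjusted p = 0.936, limma). Cplx1, complexin of conventional synapses, had 101, 112 and 122 in sham and 52.1, 62.2 and 77.7 in bTBI, or 56.2% of sham, and Cplx2 was at 84.8%. The complexins of ribbon synapses, through which photoreceptors and bipolar cells transmit, did not pass: Cplx3 was at 99.2% (adjusted p = 0.959, limma) and Cplx4 at 105% (adjusted p = 0.307, limma). The difference between paralogs was not tested. Snap25 of the target membrane, which most retinal neurons use, was at 89.5% of sham.

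Other synaptic lists lost few members. Among 26 genes of synaptic vesicles and active zones Rph3a and Syn1 were called lower, at 84.4% and 85.4% of sham. Among 28 neurotransmitter receptor genes the 2 lower ones were Chrnb3, a nicotinic receptor subunit at 80.2% of sham, and Lynx1, which restrains nicotinic receptors, at 77.2%. Lynx1 had 212 to 236 scaled counts in sham and 159 to 186 in bTBI retinas (adjusted p = 7.00e-06, limma). Of 14 postsynaptic scaffolds, Dlgap3 and Shank3 were lower, at 78.5% and 78.2%. The vesicle list kept 1 call without sham replicate 1, 2, 4 or 5 or bTBI replicate 1, 2 or 3, and the scaffold list 1 without sham replicate 1, 2 or 4 or bTBI replicate 1, 2, 3 or 6.

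Of 8 sodium channel subunits, which generate the action potential, 4 were called lower, and all 8 were negative. The count was 2 without sham replicate 1 or 2 or bTBI replicate 2 or 6. Scn4b, the beta subunit that supports resurgent current, had the largest fall among the called genes on the log2(scaled count + 1) scale. This scale understates the change of low genes, and by ratio Hapln1 fell further. Scn4b had 11.2, 12.2 and 12.5 scaled counts in sham and 4.45, 5.48 and 9.47 in bTBI retinas. The log2 fold change was -0.97 ± 0.12 (SE, adjusted p = 3.00e-05, limma), and the bTBI mean was 48.5% of sham. Scn1a stood at 75.2% and Scn2b at 82.0%. In Scn1a the groups overlapped, with 65.3 the lowest sham and 66.3 the highest bTBI value.

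Of 23 potassium channel subunits 4 were lower, among them Kcnip4 at 81.0% of sham, Kcnip1 at 83.6%, both partners of A-type channels, and Kcnc1, a channel of fast repolarization, at 85.5%. Among 24 calcium and HCN channel genes Cacnb3, an auxiliary subunit, was the 1 lower gene (83.9%). The potassium channel count was 2 without sham replicate 1, 2 or 4 or bTBI replicate 5, and Cacnb3 kept its call only without sham replicate 5 or 6 or bTBI replicate 2 or 4, with an adjusted p of 0.00999 (limma) without sham replicate 2. Of 9 genes of the axon initial segment and node of Ranvier, Sptbn4, which anchors channels there, was at 79.8% and Cntnap1, of the junction between axon and myelin, at 83.7%.

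Genes of the cytoskeleton and of transport along the axon followed. Of 25 measured, 4 were lower. Tppp3, a tubulin polymerization-promoting protein, had 53.8, 60.4 and 65.1 scaled counts in sham and 31.8, 39.3 and 47.4 in bTBI, or 66.3% of sham (adjusted p = 5.79e-05, limma). The stathmins Stmn2 and Stmn3, which regulate microtubule turnover, were at 75.1% and 77.3%, and Kif5a, a neuronal kinesin heavy chain, at 81.9%. Among 16 actin regulators Coro6, a coronin, and Limk1, which phosphorylates cofilin, were lower. Coro6 had 13.2, 15.4 and 17.1 in sham and 6.93, 8.22 and 8.83 in bTBI, 53.2% of sham, and Limk1 was at 74.0%.

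Single members stood out in other families. Rgs4, a brake on G protein signaling, was the 1 lower gene of 17 RGS genes, with 63.3, 67.2 and 74.9 scaled counts in sham and 32.9, 39.5 and 50.3 in bTBI (59.1% of sham, adjusted p = 1.84e-06, limma). Of 18 calcium buffers and sensors Vsnl1 (75.0%), Calb2 (76.0%) and Ncs1 (79.4%) were lower. Of 6 genes of perineuronal nets, the matrix around some neurons, the link proteins Hapln1 and Hapln4 were lower. No gene of this list was called without sham replicate 1 or 2 or bTBI replicate 5, and 1 was called without sham replicate 4 or 5 or bTBI replicate 1 or 6. The calcium buffer count was 1 without sham replicate 1 or 2 or bTBI replicate 2. Hapln1 had the lowest ratio of all called genes, 40.9%, but at a low level of 1.89 to 3.21 in sham and 0.501 to 1.6 in bTBI. In cholesterol synthesis 21 of 23 genes were negative with a list median of -0.10, and 1 was called lower.

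A further 76 of the 131 lower genes belong to none of the 38 lists. By their p, Scrt1, a neuronal repressor of the Snail family, led them with 83.0, 93.6 and 99.2 scaled counts in sham and 62.7, 65.3 and 71.3 in bTBI retinas (adjusted p = 2.90e-06, limma). Miat was at 63.7% of sham, Sult4a1, a sulfotransferase of the brain, at 73.7%, Fgf1, a growth factor, at 74.6%, Cend1, a neuronal differentiation protein, at 76.0%, and Kndc1 at 63.6%. Others, named after their values were seen, are also known as neuronal genes. Lgi2 and Lgi3, secreted synaptic proteins, were at 57.1% and 72.2%, Uchl1, an abundant neuronal deubiquitinase, at 74.8%, and Eno2, the neuronal enolase, at 90.5% (662 ± 16.1 against 600 ± 13.1 scaled counts, adjusted p = 0.0038, limma). Fgf12, an intracellular partner of sodium channels, was at 80.8%, Cntn2, an axonal adhesion protein, at 72.9%, and Tmem163, a zinc transporter, at 57.6%.

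Features of the lower genes were set beside those of all genes tested. The lower genes were longer, with a median span of 30464 bases against 21302.5 over all genes tested, and better expressed, with a median mean log2 value of 5.63 against 4.59. On chromosome 5 lay 17 of the 131, beside 6.78% of all genes, and on chromosome 15 lay 10 (7.63% against 3.79%). The test itself depends on the expression level, and a gene with more counts can pass the threshold at a smaller change, so these shares describe the called genes and no more. RefSeq windows of 250 bases before to 50 after the start site (GRCm38.p6) were at hand for 87 of the 131 lower genes and 11318 of all genes, with a median GC content of 64.7% and 60.7%. Of 18 short motifs searched on both strands, GGTGCTGA (TCAGCACC on the other strand), which is part of the site of the neuronal repressor REST, was in the windows of 7 lower genes, or 8.05%, and in 2.06% of all genes with a window. The cyclic AMP response element TGACGTCA was in 4.60% and 3.49%, and the GC box GGGCGG in 66.7% and 67.2%. Other motifs of the 18 differed as well in either direction. The E-box CATATG was in 6.90% of the lower and 2.21% of all genes with a window, while the E-box CACGTG was in 4.60% and 11.4%, the ETS site GGAAGTG in 5.75% and 15.8%, and the core NRF1 site in 0 of 87 lower genes and 2.19% of all. These letters are a description of the windows and not of binding.

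Windows of 3 lower genes with GGTGCTGA on either strand, Tubb3, Pvalb and Syn1, are shown 5′ to 3′ on the gene's strand. The window of Ecel1, the leading increase, also holds this motif and is shown alike, with the motif in capitals throughout. The first base of the motif is at -121 from the start site in Tubb3, -125 in Pvalb, -231 in Syn1 and -197 in Ecel1.
Tubb3 (chr8:123411303-123411602, plus strand): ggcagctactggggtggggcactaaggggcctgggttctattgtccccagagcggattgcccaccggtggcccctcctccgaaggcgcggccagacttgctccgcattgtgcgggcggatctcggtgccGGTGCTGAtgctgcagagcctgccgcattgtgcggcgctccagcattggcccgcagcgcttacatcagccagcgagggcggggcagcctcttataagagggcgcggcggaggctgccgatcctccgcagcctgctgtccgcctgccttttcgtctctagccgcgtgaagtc
Pvalb (chr15:78206351-78206650, minus strand): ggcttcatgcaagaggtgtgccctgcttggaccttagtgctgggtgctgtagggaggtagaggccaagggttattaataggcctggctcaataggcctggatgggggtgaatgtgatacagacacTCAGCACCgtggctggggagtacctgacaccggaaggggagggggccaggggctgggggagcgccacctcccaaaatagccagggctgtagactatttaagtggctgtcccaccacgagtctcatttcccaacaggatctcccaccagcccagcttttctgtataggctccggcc
Syn1 (chrX:20920869-20921168, minus strand): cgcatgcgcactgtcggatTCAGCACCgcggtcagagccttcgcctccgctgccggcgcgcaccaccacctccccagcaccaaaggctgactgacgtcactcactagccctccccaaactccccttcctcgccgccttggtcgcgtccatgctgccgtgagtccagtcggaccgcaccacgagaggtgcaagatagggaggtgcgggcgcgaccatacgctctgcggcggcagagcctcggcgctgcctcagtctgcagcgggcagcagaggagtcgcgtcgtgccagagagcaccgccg
Ecel1 (chr1:87156307-87156606, minus strand): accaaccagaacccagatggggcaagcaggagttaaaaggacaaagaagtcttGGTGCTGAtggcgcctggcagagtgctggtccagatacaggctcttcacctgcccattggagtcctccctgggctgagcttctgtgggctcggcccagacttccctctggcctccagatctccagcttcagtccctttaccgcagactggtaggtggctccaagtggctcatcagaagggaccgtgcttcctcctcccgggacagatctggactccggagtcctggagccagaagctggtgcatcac

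The extent of the loss differed between bTBI retinas. Taken over the 131 lower genes, the median log2 difference from the sham mean was -0.49 in bTBI replicate 1, -0.43 in replicate 2, -0.34 in replicate 3, -0.23 in replicate 4, -0.37 in replicate 5 and -0.40 in replicate 6, while the sham retinas lay between -0.08 and 0.04. When each of the 12 retinas was left out in turn, 18 of 55 named called genes lost their call in at least 1 omission, 17 of them without sham replicate 2. Of the bTBI retinas, replicate 4 was the highest in 93 of the 131 genes and replicate 1 the lowest in 62. Replicate 4 was also the deepest bTBI retina at 23838444 inferred reads, and the other bTBI retinas had 15521745 to 18130824. A link between depth and the extent of the loss was not tested. The genes were chosen on these retinas, so the distance between the groups is given as a description.

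For the other retinal neurons no loss was called. None of 67 measured genes for rods, cones, photoreceptor matrix, bipolar, amacrine and horizontal cells was called by limma, and at an unadjusted p under 0.05, 15 of them were higher and 1 was lower. All 14 rod genes were positive, with a median log2 fold change of 0.06 and a range of 0.02 to 0.11. The mean log2 level of the rod list was 11.34 to 11.43 in sham and 11.45 to 11.49 in bTBI retinas, so the groups did not overlap although no single rod gene passed. This was not particular to rods. The photoreceptor matrix list had 9.89 to 9.97 in sham and 9.98 to 10.1 in bTBI, while the cone, bipolar, amacrine and horizontal cell lists overlapped. Some neuronal lists were apart in the other direction, such as RGC identity with 5.07 to 5.23 in sham and 4.39 to 4.84 in bTBI. Other neuronal lists overlapped, such as synaptic vesicles and active zones with 7.14 to 7.246 in sham and 7.113 to 7.205 in bTBI. Rcvrn stood at 106% of sham (adjusted p = 0.233, limma). In cones Opn1sw, the short-wavelength opsin, was at 91.4% (adjusted p = 0.364, limma) and Arr3, cone arrestin, at 100% (adjusted p = 0.986, limma). Among amacrine cell genes Gad1, which makes GABA, was at 105% (adjusted p = 0.524, limma). The list medians were 0.02 for amacrine cells, 0.02 for bipolar cells and 0.01 for cones.

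Markers of neighbouring tissues varied between retinas without separating the groups. The mean log2 level of 10 lens genes was 0.81 to 3.25 in sham and 1.17 to 3.02 in bTBI retinas, that of 9 pigment epithelium genes 6.12 to 6.96 and 6.18 to 6.71, that of 3 blood genes 1.84 to 2.44 and 2.08 to 2.68, and that of 3 oligodendrocyte genes 4.17 to 4.40 and 4.19 to 4.37. Cryaa, the alpha-crystallin that defines the lens list, was at 0 in 1 sham retina and at 44.4 scaled counts in another. Immediate early genes, which are switched on within minutes of stimulation, were not even. Their level was 4.34 in sham replicates 3 and 6 and 3 to 3.24 in the other sham retinas, while it was 2.95 in bTBI replicate 5 and 3.90 to 4.33 in the other bTBI retinas. Egr1 reached 7.29 to 130 scaled counts in sham and 8.25 to 132 in bTBI retinas (log2 fold change 1.18 ± 0.59 SE, adjusted p = 0.489, limma). With this level as a covariate, added after seeing the data, 92 genes were lower and 1 higher, and 11 of 15 RGC identity genes and all 5 neurofilament genes were among the lower ones. In the same fit 2 SNARE genes, 1 calcium buffer gene and 0 perineuronal net genes were called lower.

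Called increases were few, and both genes were at low levels. Ecel1, at chr1:87147655-87156521 (GRCm38), an endopeptidase of the neprilysin family that injured neurons switch on, had 0.467, 0.777 and 1.12 scaled counts in sham and 1.69, 2.21 and 3.03 in bTBI retinas. Every bTBI retina was above every sham retina, and the bTBI mean was 277% of sham. On the log2(scaled count + 1) scale, which understates the change of low genes, the fold change was 0.84 ± 0.12 (SE, adjusted p = 0.000239, limma). Lad1, at chr1:135818598-135833342, ladinin, an anchoring filament protein of basement membranes, had 1.16, 1.43 and 1.71 in sham and 2.06, 2.46 and 3.27 in bTBI (179% of sham, adjusted p = 0.0033, limma). The call of Lad1 was kept without sham replicate 3 and without bTBI replicate 5, and lost without any other single retina, with an adjusted p of up to 0.0119 (limma, without sham replicate 1). Lad1 also lost its call with the immediate early gene covariate and in the single fit of 24 retinas (adjusted p = 0.0171 and 0.374, limma). Ecel1 kept its call whichever retina was left out and lost it in the single fit of 24 retinas (adjusted p = 0.0661, limma).

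**Figure D4:**
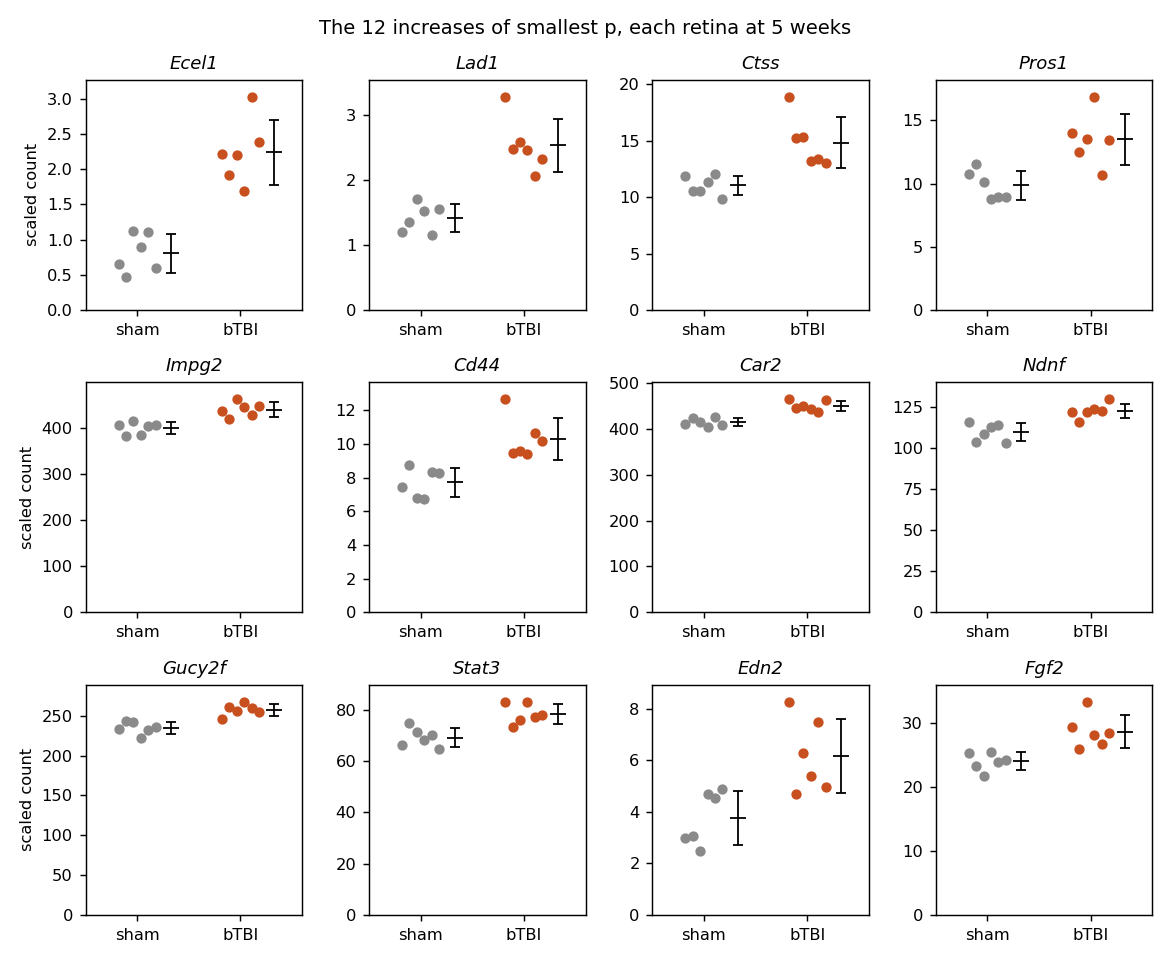
Scaled counts in each retina at 5 weeks for the 12 genes with a positive change and the smallest p, with grey points for sham, orange points for bTBI, and the mean and SD beside them (n = 6). Ecel1 and Lad1 were called, and the other 10 were not.

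The next 10 genes by p among those with a positive change had adjusted p from 0.0101 to 0.0281 (limma) and are given as values. Several are members of the glial or immune lists. Ctss, cathepsin S of microglia, had 9.86, 11.0 and 12.1 scaled counts in sham and 13, 14.3 and 18.9 in bTBI (134% of sham). Cd44, a hyaluronan receptor of reactive Müller glia and astrocytes, had 6.76 to 8.77 and 9.38 to 12.7 (134%). Edn2, endothelin 2, which stressed photoreceptors make, had 2.50 to 4.91 and 4.68 to 8.28 (164%). Fgf2, a trophic factor of stressed retina, was at 120%, Stat3, a transducer of glial cytokine signals, at 113%, and Pros1, a bridging ligand of the TAM receptors for phagocytosis, at 137%. The other genes of this group were in none of the glial or immune lists, and the cell type that makes them was not tested. Impg2 of the photoreceptor matrix stood at 110%, Gucy2f, the guanylate cyclase of photoreceptors, at 110%, Car2, carbonic anhydrase, at 109%, and Ndnf, a secreted neurotrophic factor, at 112%. With a robust prior Ctss passed the threshold (adjusted p = 0.0043, limma). Under another setting its adjusted p rose to 0.495, and with single retinas left out to at most 0.0311 (limma). Among the 18 higher genes at an adjusted p under 0.05, which are 0.113% of the genes tested, 14 had every bTBI retina above every sham retina.

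Glial and immune lists held mostly positive values and no call. Of 17 genes of the reactive macroglia list 15 were positive, with a median log2 fold change of 0.18. In this list 4 had an adjusted p under 0.05 (Edn2, Fgf2, Stat3 and Cd44, limma), and Edn2 is also made by stressed photoreceptors. With single retinas left out, the adjusted p of these 4 rose to as much as 0.0751, 0.0748, 0.0677 and 0.0576 (limma). Gfap, the intermediate filament of reactive glia, had 7.53, 10.4 and 11.4 scaled counts in sham and 8.45, 12.3 and 22.1 in bTBI (adjusted p = 0.395, limma), and its effect at 5 weeks minus that at 8 days was -2.19 (adjusted p = 0.0358, limma). Its highest value came from bTBI replicate 1, and the other 5 bTBI retinas reached at most 13. Of 12 microglia genes 10 were positive, with a median of 0.10 that was 0.07 without bTBI replicate 1 and 0.06 without sham replicate 6, and Cx3cr1, the fractalkine receptor, had 3.62 to 5.53 in sham and 4.65 to 6.92 in bTBI (adjusted p = 0.619, limma). All 17 interferon-stimulated genes were positive, with a median of 0.24. Their mean log2 level was 4.13 in bTBI replicate 1, 3.11 to 3.37 in the other bTBI retinas and 2.96 to 3.24 in sham retinas. Without bTBI replicate 1 this median was 0.13 and 14 of the 17 were positive. The same omission took the median of 6 activated microglia genes from 0.08 to -0.02, with 3 positive, and that of 10 MHC genes from 0.08 to 0.02, with 6 positive. Only 6 of 14 listed activated microglia genes and 12 of 15 listed microglia genes were measured at 5 weeks, so these medians cover part of each list. The median of the reactive macroglia list was 0.11 without bTBI replicate 4. By limma none of 46 glial genes and none of 42 genes of the interferon, MHC, complement and TAM receptor lists was called, and at an unadjusted p under 0.05, 13 and 12 of them were higher and 0 lower. At 8 days the median log2 fold change was 0.84 for the reactive macroglia list, with 13 called higher, 0.98 for microglia, with 7, and 1.38 for interferon-stimulated genes, with 15.

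Most genes lower at 5 weeks had a negative change at 8 days as well. The effects come from different retinas with their own sham groups, but the RNA kit differed between the times, and its effect on a comparison of times cannot be told apart from time. At 8 days 147 of 14922 genes (0.985%) were lower and 189 (1.27%) higher. Together these are 336 genes, and 189 to 217 were called without 8-day sham replicate 2, 3 or 5 or 8-day bTBI replicate 5 or 6. All 131 genes lower at 5 weeks were measured at 8 days, 128 with a negative change and 87 called lower, with a median log2 fold change of -0.45 beside -0.39 at 5 weeks, and 2 of them were called in the difference between times. Vamp1 stood at -1.14 at 8 days and -0.51 at 5 weeks (adjusted p of the difference = 0.0632, limma), and Coro6 at -0.63 and -0.83 (adjusted p of the difference = 0.87, limma). Of the 189 genes higher at 8 days 151 were in the 5-week table. These were chosen on their 8-day values, and their median was 0.92 at 8 days and 0.13 at 5 weeks, with 135 positive and 2 called at 5 weeks, Ecel1 and Lad1.

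The effects of both times differed in 15 of 14455 genes (0.104%), and all 15 were lower at 5 weeks than at 8 days. The count was 43 without bTBI replicate 1 of 5 weeks and 9 without replicate 3 or 5. At an unadjusted p under 0.05, the effect was higher at 5 weeks in 413 genes and lower in 815. The fold change of Ecel1 was 3.03 at 8 days and 0.84 at 5 weeks (difference -2.19, adjusted p = 0.000807, limma) and that of Stat3 was 0.83 and 0.18 (difference -0.65, adjusted p = 0.00186, limma). The difference of Stat3 did not pass without bTBI replicate 3 or 5 (adjusted p = 0.00503 and 0.00501, limma). For Fgf2 the difference was -1.01 (adjusted p = 0.00725, limma) and for Ctss -1.18 (adjusted p = 0.0111, limma), which did not pass. Car2 and Gucy2f were not raised at 8 days, with log2 fold changes of -0.08 and 0.02, and their differences did not pass (adjusted p = 0.0452 and 0.845, limma).

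A pair of the lower genes had positive values at 8 days and differed between the times. Spp1 had a log2 fold change of 0.49 at 8 days and -0.57 at 5 weeks (difference -1.06, adjusted p = 0.00144, limma). S100a10, an annexin partner named after its values were seen, had 0.35 at 8 days and -0.32 at 5 weeks (difference -0.67, adjusted p = 0.00386, limma), but this difference passed in 1 of the 12 omissions, without bTBI replicate 1, and had an adjusted p of up to 0.0102 (limma, without sham replicate 2) in the others. Its values at 5 weeks were 11.2 to 12.5 scaled counts in sham and 9.01 to 9.55 in bTBI retinas, but its adjusted p of 0.004 at 5 weeks rose past the threshold whichever single retina was left out, to 0.0147 (limma) without sham replicate 2. Spp1 lost its call without bTBI replicate 1 or 5 or sham replicate 1, 2 or 5, with an adjusted p of up to 0.00806 (limma, without sham replicate 2). Fabp5, a fatty acid carrier, had 15.8 to 19.2 in sham and 11.9 to 13.6 in bTBI at 5 weeks (log2 fold change -0.42) and a log2 fold change of 0.02 at 8 days, but the difference did not pass (adjusted p = 0.406, limma).

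**Figure D5:**
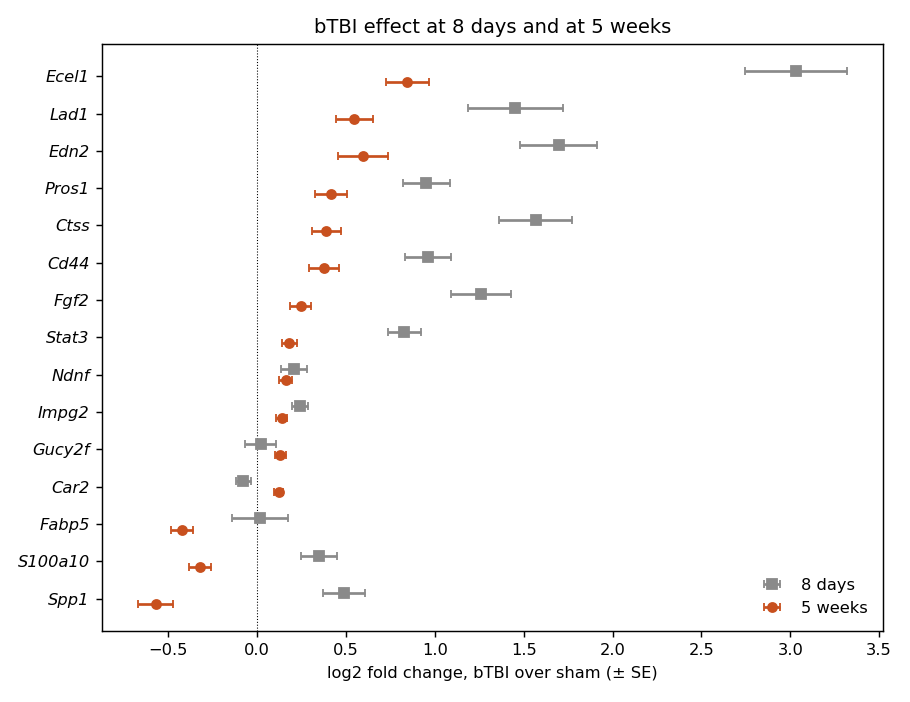
The log2 fold change of bTBI over sham with its SE (x axis) at 8 days (grey squares) and at 5 weeks (orange circles) for the 12 increases of smallest p and for Fabp5, S100a10 and Spp1. The 5-week points of Ecel1 and Stat3 lie to the left of their 8-day points, and those of Spp1 and S100a10 lie on the other side of 0.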

How the data were processed

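Whole retinas were dissected in RNAlater, and RNA was extracted with the RNeasy Mini Kit at 5 weeks and with the RNeasy Plus Mini Kit at 8 days. Stranded polyA libraries were sequenced as 75 bp paired ends. The authors mapped the reads with STAR to GRCm38 (mm10 in the submitters' processing notes), counted them with featureCounts and scaled them with edgeR, and versions were not given in the sources used here. The deposited signal values are gene counts divided by an effective library size, on a CPM-like scale, after a filter on low counts. Within each retina all low values were whole multiples of 1 step to within 0.01, from which depth was inferred. It could not be checked against a total, so no count test was run.

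The values were compared as log2(value + 1) with limma 3.58.1 in R 4.3.3 (trend=TRUE, robust=FALSE, Benjamini-Hochberg over all 15920 genes, called at an adjusted p under 0.005), and the 14922 genes of 8 days alike. The difference of both effects was fitted over 14455 genes and 24 retinas. List levels are mean log2 values per retina. Ensembl IDs had a symbol and a GENCODE M21 model for 15902 of 15920 genes. The fit was tested on simulated data.

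Named are each gene called higher, the 12 increases and 20 decreases of smallest p, the 5 largest falls among called genes whose mean log2 is 1 or more, up to 4 called members of each list (or 2 of smallest p), and defining markers. Further genes are said to be named after their values were seen, and some that follow the rule are given by counts alone or are not reported here. The comparison and its 38 gene lists were chosen with earlier results of these data known. The design text gives 12 mice at each timepoint. No list was tested as a set.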

Additional observations from a re-analysis of the deposited data

Results flagged for a closer look

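Of the 15 genes whose effect differed between 5 weeks and 8 days, 4 are among the named genes. The log2 fold change at 5 weeks minus that at 8 days was -2.19 for Ecel1, -0.65 for Stat3, -1.06 for Spp1 and -0.67 for S100a10 (adjusted p from 0.000807 to 0.00386, limma).

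Among 302 groups of 6 retinas, taken over named genes and the list levels, 17 held a retina far from the other 5 by Dixon's criterion, and chance alone gives about 1 in 20 groups. In bTBI replicate 1, Irf9 had 43.4 scaled counts (others at most 27.7), Usp18 7.41 (at most 3.83), Serping1 10.8 (at most 8.84) and Gfap 22.1 (at most 13), and the level of the interferon-stimulated list was 4.13 (at most 3.37). Scn4b was high in bTBI replicate 4 at 9.47 and low in sham replicate 6 at 11.2, and Stmn2 was low in sham replicate 6 at 56.6. Satb1 was low in bTBI replicate 5 at 20.4, and the level of the immediate early list was low there at 2.95. Opn1mw was high in bTBI replicate 6 at 178, and so was Cryaa at 37.0. In sham replicate 3 the rod list was low at 11.3. In sham replicate 2 Cdhr1 was high at 1403, the activated microglia list was high at 3.50 and the photoreceptor matrix list was low at 9.89. The oligodendrocyte list was low in bTBI replicate 4 at 4.19.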

How the results depend on the processing

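No named gene changed direction under any alternative where it was called. Another scaling left 128 (median of ratios) and 149 (column totals) genes called in place of 133, with all-gene medians of 0.005 and -0.001. A pseudocount of 0.1 gave 132, a minimum of 1 in 6 of 12 retinas 133 and a robust prior 164. A prior without the trend gave 56 called genes, 54 lower, 25 of them in neuronal lists. The single fit of 24 retinas gave 75, all 75 lower, 0 higher and 30 in neuronal lists, and there Ecel1 had an adjusted p of 0.0661 and Vamp1 of 0.0128 (limma). At a threshold of 0.05, 326 genes were called, 308 lower and 18 higher. With the immediate early gene level as a covariate 93 were called, 1 of them higher. The cause of these changes was not tested. The main fit used no pairing by replicate number. Same-numbered retinas correlated from -0.11 to 0.15 and not every retina correlated best with its own number. These correlations over all genes cannot show that the numbers carry no pairing. The replicate block gave 134 called genes, 117 of them shared with the 133, and 1 higher gene, with Lad1 at an adjusted p of 0.00952 (limma). Leaving out each retina in turn gave 88 to 163 called genes (88 without sham replicate 2, 163 without bTBI replicate 4), 87 to 162 lower, 1 to 3 higher, 35 to 59 in neuronal lists, 189 to 486 at 8 days and 9 to 43 in the difference between times. Of 55 named called genes 37 kept their call in all 12 omissions. Among the other 18 were Lad1, Satb1, Spp1, Scn1a, Scn2b, Kcnip1, Kcnip4, Kcnc1, Cacnb3, Snap25, Syn1, Shank3, Calb2, Ncs1, Hapln4, Hapln1 and S100a10, with highest adjusted p from 0.00595 (Hapln4) to 0.0147 (S100a10). Of the 18 calls 14, 17, 5, 12, 8 and 2 were lost without sham replicates 1 to 6 and 11, 13, 5, 2, 11 and 10 without bTBI replicates 1 to 6. At 8 days 189 were called without sham replicate 2 and 486 without bTBI replicate 2, and the 43 came without bTBI replicate 1 and the 9 without bTBI replicate 3 or 5. The planned count tests of edgeR, with TMM and with its other scaling, were not run because the values are scaled. With 6 retinas per group at the depths given, absence from the called genes does not show that a gene did not change.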
